A study of Rattus norvegicus with 19 samples.

Results

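Platelet-derived growth factor (PDGF) and Kit signalling genes were followed across the rat Leydig cell lineage. The 8 genes chosen by name were the PDGF receptors Pdgfra and Pdgfrb, the ligands Pdgfa, Pdgfb, Pdgfc and Pdgfd, the receptor Kit and its ligand Kitlg. A probe set counted as a member if the platform annotation gave it exactly 1 gene symbol and that symbol was one of these. This gave 12 of the 31042 probe sets tested, for 7 of 14217 named genes, and Pdgfb is not analysed here. Pdgfrb had 3 probe sets, Kitlg had 4 and the other genes had 1 each.

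The samples were 19 Affymetrix arrays of cells from Sprague-Dawley rats, each labelled with a cell type and no treatment. The groups were stem (5 arrays), progenitor (3 arrays), immature (4 arrays) and adult (4 arrays) Leydig cells, and bone stem cells (3 arrays). The labels give no animal age, isolation method, culture time or pooling, and where these differ between groups they cannot be told apart from the stage. Nor do they say whether replicate arrays stem from different animals, so each p-value measures the spread between arrays, which may be technical.

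PDGF ligands are secreted dimers that bind a pair of receptor tyrosine kinases. The receptor encoded by Pdgfra accepts the A, B and C chains, and the one encoded by Pdgfrb mainly the B and D chains. In mice, loss of Pdgfa leaves the testis short of adult Leydig cells, and Pdgfra is widely used to mark Leydig precursors in the interstitium. Kit is a related receptor tyrosine kinase of germ cells, mast cells, blood progenitors and Leydig cells, and its ligand, stem cell factor, is made in the testis mainly by Sertoli cells.

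The values are MAS5 signals, that is, linear intensities scaled by the authors so that the 2% trimmed mean of each array was 100. A signal has no meaning between different probe sets, so levels of a gene are compared only within 1 probe set. The marker sums below add signals of different probe sets. Each sum therefore follows mainly its brightest genes, and it is compared only between arrays. Between 29.1% and 47.3% of an array's probe sets had signals below 16, and no detection calls were used, so values of that size have no tested floor. Differences are log2 changes of signal + 16 with their standard error (SE) from a limma fit of all 19 arrays. A change was called at a Benjamini-Hochberg adjusted p under 0.05 over all 31042 probe sets. The summed signal of 7 Leydig markers, such as Cyp11a1 and Lhcgr, was 300 to 1525 on stem Leydig arrays, 13669 to 31078 on progenitor and adult arrays, 11707 to 22182 on immature arrays and 78.8 to 604 on bone stem arrays. Thus 2 of the 7 markers lay under 16 on every stem Leydig array and 4 of 7 on every bone stem array. The bone stem arrays also carried macrophage and other leukocyte markers, with a sum over 12 genes of 14005 to 16120, against 725 to 6044 on the Leydig lineage arrays. The beta-actin control probes, read as the 3′ over the 5′ signal, gave 6.35 on progenitor replicate 3 and at most 2.95 on the arrays of the other groups.

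Pdgfra and Kit lie side by side on rat chromosome 14, with no other protein-coding gene between them in the RefSeq table, and both were higher in later Leydig cells than in stem Leydig cells. Kitlg and Pdgfa are the ligands with the largest log2 changes between progenitor and stem Leydig cells when 16 is added before the log. With a constant of 1, Pdgfc (-2.67) exceeded Kitlg (2.52) in size. The RefSeq promoter windows of these 4 genes (build GRCr8, 250 bases before to 50 after the gene start) are printed for that reason, 5′ to 3′ on the gene's own strand. Capitals mark matches, on either strand, to the GC box GGGCGG, the TATA box TATAAA or the CCAAT box CCAAT. The windows are chr14:33408467-33408766 on the minus strand for Pdgfra, chr14:32978763-32979062 on the minus strand for Kit, chr7:36782410-36782709 on the plus strand for Kitlg and chr12:20759116-20759415 on the plus strand for Pdgfa.
Pdgfra: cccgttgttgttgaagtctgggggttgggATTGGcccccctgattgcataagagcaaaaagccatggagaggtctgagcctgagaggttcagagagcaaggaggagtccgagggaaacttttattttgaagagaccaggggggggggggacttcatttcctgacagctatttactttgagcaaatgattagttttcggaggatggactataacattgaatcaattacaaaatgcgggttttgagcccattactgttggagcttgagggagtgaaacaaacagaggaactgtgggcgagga
Kit: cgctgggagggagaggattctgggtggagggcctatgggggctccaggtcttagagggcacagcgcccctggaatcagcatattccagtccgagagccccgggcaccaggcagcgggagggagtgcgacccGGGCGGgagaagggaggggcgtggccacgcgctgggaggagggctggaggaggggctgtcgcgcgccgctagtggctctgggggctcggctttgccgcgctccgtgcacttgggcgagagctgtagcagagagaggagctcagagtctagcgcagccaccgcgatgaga
Kitlg: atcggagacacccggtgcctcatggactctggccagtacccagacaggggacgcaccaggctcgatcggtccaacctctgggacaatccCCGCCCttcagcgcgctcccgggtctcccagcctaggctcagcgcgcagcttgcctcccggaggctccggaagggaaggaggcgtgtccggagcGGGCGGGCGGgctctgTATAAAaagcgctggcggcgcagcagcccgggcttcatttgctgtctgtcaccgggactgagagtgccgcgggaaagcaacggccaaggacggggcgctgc
Pdgfa: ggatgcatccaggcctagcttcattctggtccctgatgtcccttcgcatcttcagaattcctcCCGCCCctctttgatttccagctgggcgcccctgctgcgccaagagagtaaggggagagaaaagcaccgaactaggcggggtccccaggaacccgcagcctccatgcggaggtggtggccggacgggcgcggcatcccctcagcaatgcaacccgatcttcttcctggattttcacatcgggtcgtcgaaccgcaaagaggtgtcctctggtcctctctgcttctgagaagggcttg

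The Pdgfra window differed from the other 3 in base composition. It was 48.0% G and C with 5 CpG dinucleotides, against 69.0% and 23 for Kit, 68.0% and 28 for Kitlg, and 60.0% and 17 for Pdgfa. The median over 33469 rat promoter windows was 51.7% G and C. The GC box was present in 5 of 7 member windows, those of Kit, Pdgfa, Pdgfb, Pdgfd and Kitlg, and in 33.1% of all windows. Kitlg held 3 GC boxes, a pair of them overlapping, followed by the only TATA box among the 7, a motif found in 14.2% of all windows. Pdgfra held the only CCAAT box (37.5% of all windows). Pdgfd was the only window with the cyclic AMP response core TGACG (21.2%), matched on both strands. The letters AAGGTCA of a steroidogenic factor site (4.61% of all windows), AGATAA of a GATA site (11.6%) and the E-box CACGTG (6.42%) were in 0 of the 7. The table holds no window for Pdgfrb.

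The first comparison asked how these genes differ between progenitor and stem Leydig cells. All 7 measured genes were called, 3 higher (Pdgfra, Kit, Kitlg) and 4 lower (Pdgfrb, Pdgfa, Pdgfc, Pdgfd), where 45.3% of all named genes were called, 26.8% higher and 18.5% lower. The signals of the groups did not overlap for 6 of the 7, against 44.9% of all named genes. The median change over the 7 was -0.49 on the log2 scale, beside 0.08 over all named genes. All 12 member probe sets were called, against 36.7% of all probe sets. The members were chosen with earlier results of these data known, so these counts cannot be read as an excess over the background. The changes of each gene in this and the later comparisons appear in the plot of log2 changes.

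**Figure D1:**
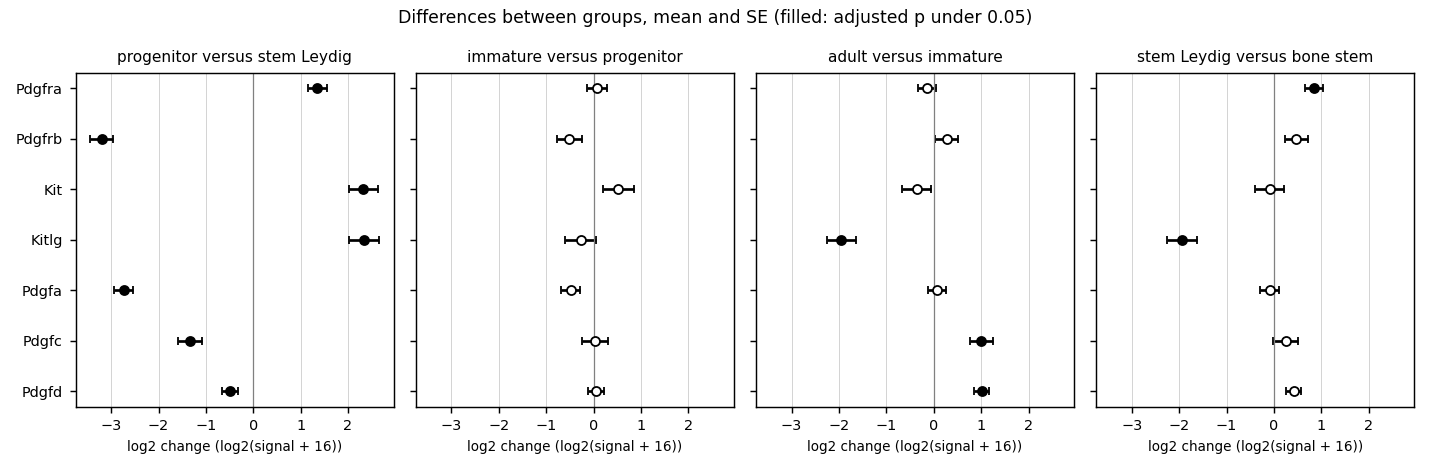
Log2 change of signal + 16 (horizontal axis, no unit) for 7 genes in 4 comparisons, as mean and SE from the limma fit, with filled points called at an adjusted p under 0.05. All 7 points are filled for progenitor versus stem Leydig cells, 0 for immature versus progenitor, 3 for adult versus immature and 2 for stem Leydig versus bone stem cells.

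Pdgfra encodes the receptor alpha. In replicate order it was 1679, 2198 and 1982 on progenitor arrays, against 850, 902, 448, 930 and 759 on stem Leydig arrays. The lowest progenitor array lay far above the highest stem Leydig array. The log2 change was 1.35 ± 0.20 (SE; limma adjusted p = 1.55e-05). On immature arrays Pdgfra stood at 1563, 2035, 1961 and 2784, and on adult arrays at 1767, 1793, 2150 and 1749. These overlapped with each other and with the progenitor arrays, so among the 3 later stages Pdgfra formed a plateau within the spread (limma adjusted p = 0.951 for immature versus progenitor, 0.702 for adult versus immature and 0.887 for adult versus progenitor). Bone stem arrays were lowest, at 407, 412 and 419, below all stem Leydig arrays, and the log2 difference of stem Leydig over bone stem cells was 0.85 ± 0.20 (limma adjusted p = 0.00443). The order of group means was therefore immature, progenitor, adult, stem Leydig and bone stem, and only the last 2 steps of it were called.

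Pdgfrb encodes the receptor beta, best known in pericytes, smooth muscle and mesenchymal cells, and went the opposite way. Its brightest probe set stood at 44.3, 38.8 and 45.0 on progenitor arrays, against 619, 476, 345, 724 and 531 on stem Leydig arrays. The groups were far apart, with a log2 change of -3.20 ± 0.24 (limma adjusted p = 1.57e-09). It stayed low at 29.5, 19.4, 15.99 and 40.01 on immature and 66.3, 24.5, 18.9 and 36.9 on adult arrays. No difference among these 3 stages was called (limma adjusted p = 0.452 to 0.59), and the log2 change of adult versus stem Leydig cells was -3.44 ± 0.22 (6.61e-11). Bone stem arrays, at 366, 370.5 and 380.0, lay within the stem Leydig range, and this difference of 0.47 ± 0.24 did not pass the test (limma adjusted p = 0.211). It did pass with array quality weights (0.0386) and with the probe sets of the gene averaged (0.0463).

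The 2 dimmer Pdgfrb probe sets were also lower in progenitor than in stem Leydig cells, by -1.09 ± 0.31 (limma adjusted p = 0.00868) and -0.92 ± 0.31 (0.023). Progenitor replicate 3, the array with the high beta-actin ratio, stood at 48.4 and 43.2 on them, inside the stem Leydig ranges of 29.5 to 94.9 and 17.2 to 74.7, while the other progenitor arrays were at 4.83 to 13.9. On the brightest probe set that array did not stand out. Averaging the 3 probe sets gave a smaller log2 change of -1.74 for progenitor versus stem Leydig cells and of -2.14 for adult versus stem Leydig cells.

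Most smooth muscle, pericyte and mesenchymal markers were lower, like Pdgfrb, in progenitor than in stem Leydig cells. The summed smooth muscle and pericyte signal over 10 genes was 522 to 724 on progenitor, 273 to 546 on immature and 414 to 1947 on adult arrays, against 6847 to 13604 on stem Leydig arrays, and 8450 to 12194 on bone stem arrays. Of the 10, 8 were lower and 1 higher in progenitor than in stem Leydig cells (median log2 change -3.76). Of all named genes 18.5% were lower and 26.8% higher. Adult replicate 1 had the highest smooth muscle sum and, on the brightest probe set, the highest Pdgfrb signal of its group. On the next Pdgfrb probe set by brightness it stood at 6.05, below the 15.8 of adult replicate 2. On the dimmest, adult replicate 1 was again the highest of its group, at 10.7 against 5.01 to 6.29, all under 16. Adult replicate 1 also had the highest Pdgfa signal of its group, at 65.2 against 35.0 to 40.2. Its endothelial, germ cell and leukocyte sums were also the highest among adult arrays, but its mesenchymal sum was not. Mesenchymal markers over 8 genes summed to 2774 to 3127 on progenitor, 3168 to 3773 on immature and 3883 to 5898 on adult arrays, against 5106 to 7218 on stem Leydig arrays, and to 6938 to 7718 on bone stem arrays. Of the 8, 6 were lower and 2 higher in progenitor than in stem Leydig cells, with the surface glycoprotein gene Thy1 at 97.5 ± 32.6 in progenitor against 2040.1 ± 288 in stem Leydig cells. Pdgfa, described further on, was lower in the same comparison. In adult versus immature cells Pdgfrb was not called. There, 5 of the 10 smooth muscle and pericyte markers were higher and 0 lower, and 4 of the 8 mesenchymal markers were higher and 1 lower. Of all named genes 12% were higher and 17.3% lower. The part of such cells in the Pdgfrb and Pdgfa values was not tested, and in bulk RNA fewer cells of a type and less RNA per cell cannot be told apart.

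**Figure D2:**
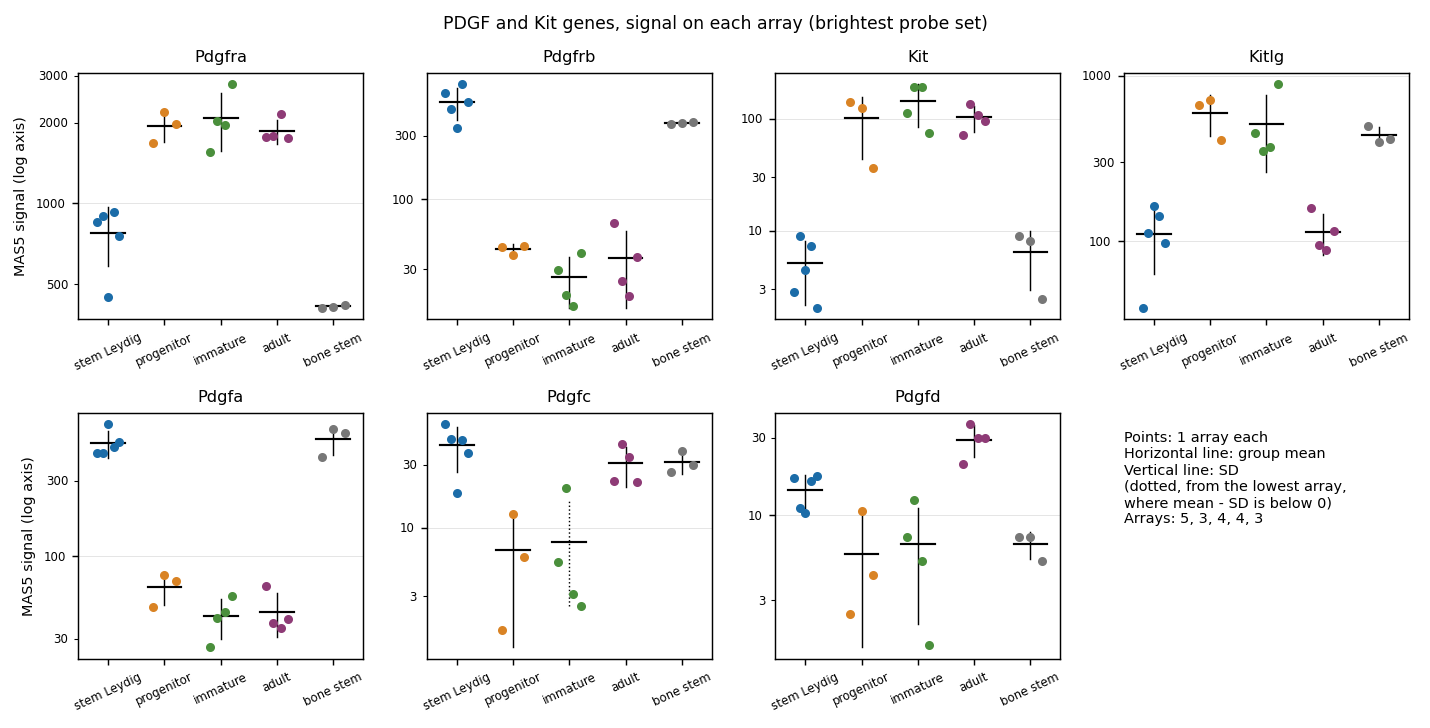
MAS5 signal (vertical log axis, arbitrary units scaled to a trimmed mean of 100) of the brightest probe set of each gene on every array, by group, with 1 point per array, the group mean as a horizontal line and the SD as a vertical line. Pdgfra and Kit sit high in progenitor, immature and adult cells, Pdgfrb and Pdgfa high in stem Leydig and bone stem cells, and Kitlg high in progenitor, immature and bone stem cells.

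Kit encodes the stem cell factor receptor. Its signal was 141, 125 and 36.1 on progenitor arrays, against 2.82, 8.96, 4.47, 7.25 and 2.04 on stem Leydig arrays. Every stem Leydig array lay under 16, where the table has no tested floor, and every progenitor array lay above it. The log2 change was 2.32 ± 0.31 (limma adjusted p = 5.04e-06), and its size follows the constant added before the log, with 3.98 for a constant of 1 and 1.19 for 64. Kit stood at 113, 193, 193 and 74.0 on immature arrays and at 72.0, 136, 109 and 94.8 on adult arrays. Bone stem arrays were at 8.95, 8.10 and 2.43, overlapping with stem Leydig arrays (log2 difference -0.09 ± 0.31 for stem Leydig over bone stem, limma adjusted p = 0.909).

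The order of Kit means was immature (143 ± 59.5, SD, n = 4), adult (103 ± 27.0, n = 4), progenitor (101 ± 56.4, n = 3), bone stem (6.49 ± 3.54, n = 3) and stem Leydig (5.11 ± 2.94, n = 5). Of the neighbours in this order, progenitor over bone stem was the only called pair (log2 difference 2.23 ± 0.35, limma adjusted p = 3.5e-05), in a comparison where 45.3% of all named genes were called. Kit was lowest within the progenitor group on replicate 3 and within the immature group on replicate 4. Without both arrays, adult versus immature cells passed the test with a log2 change of -0.61 (limma adjusted p = 0.0488), against -0.36 ± 0.30 (0.469) with all arrays.

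Markers of germ, mast and blood cells were read beside it, but the germ cell and erythroid lists do not single out cells that carry Kit. The brightest germ cell markers were Odf1 and Prm1, at means of 996 and 635 in adult cells. The summed signal of 8 mast cell markers was 91.3 to 111 on progenitor, 85.8 to 160 on immature and 47.2 to 118 on adult arrays, against 58.3 to 76.1 on stem Leydig arrays and 55.2 to 61.1 on bone stem arrays. Of the 8 genes, 5 stayed under 16 on all progenitor arrays, 3 on all immature arrays and 4 on all adult arrays. Germ cell markers, summed over 9 genes, stood at 50.4 to 55.3 in stem Leydig cells, 174 to 376 in progenitor, 460 to 1140 in immature and 1369 to 3174 in adult cells. Kit was called higher in progenitor than in stem Leydig cells. There, 3 of the 9 germ cell markers and 2 of the 8 mast cell markers were higher and 0 lower, beside 26.8% and 18.5% of all named genes. Kit was not called in adult versus immature cells, where 2 germ cell markers were higher and 2 lower, beside 12% and 17.3%. Nor was it called in immature versus progenitor cells (limma adjusted p = 0.598). There, 6 germ cell markers were higher and 0 lower, beside 1.33% and 0.612%. Kit was also not called in adult versus progenitor cells (limma adjusted p = 0.814), where 6 were higher and 2 lower, beside 14% and 19.6%. Erythroid and marrow markers, 6 genes led by the globin gene Hbb, summed to 45.9 to 85.5 in stem Leydig, 3486 to 5423 in progenitor, 2517 to 5399 in immature and 284 to 728 in adult cells, and to 27.3 to 56.5 in bone stem cells. Of the 6, 4 were higher in progenitor than in stem Leydig cells and 0 lower. The part of germ, mast and blood cells in the Kit values was not tested.

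Kitlg, the ligand of Kit, had a different course from its receptor. Its brightest probe set stood at 669.9, 713 and 410.5 on progenitor arrays, against 39.5, 112, 163, 143 and 97.4 on stem Leydig arrays. These groups did not overlap (log2 change 2.34 ± 0.32, limma adjusted p = 5.89e-06). Immature arrays, at 452, 351, 371 and 887, overlapped with progenitors and the log2 change of -0.27 ± 0.33 did not pass (limma adjusted p = 0.842). The ligand was low again on adult arrays, at 158, 95.7, 88.9 and 115, all below every immature array. That change was -1.95 ± 0.31 on the log2 scale (limma adjusted p = 9.83e-05). Adult and stem Leydig cells, the ends of the lineage, overlapped in Kitlg (0.12 ± 0.29, limma adjusted p = 0.798).

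Bone stem arrays carried Kitlg at 496, 398 and 418. Stem Leydig cells were lower by -1.93 ± 0.32 on the log2 scale (limma adjusted p = 0.000161), without overlap. The order of Kitlg means was progenitor (598 ± 164, SD, n = 3), immature (515 ± 252, n = 4), bone stem (437 ± 51.9, n = 3), adult (114 ± 31.2, n = 4) and stem Leydig (111 ± 47.4, n = 5), and only adult versus bone stem was a called step (log2 change -1.82 ± 0.33, limma adjusted p = 0.000141), in a comparison with 52.4% of all named genes called.

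The second Kitlg probe set by brightness gave the same calls within the Leydig lineage at lower signals. It averaged 64.3 ± 43.7 in progenitor against 11.8 ± 4.27 in stem Leydig cells (log2 change 1.33 ± 0.30, limma adjusted p = 0.00136). It was lower in adult than in immature cells, by -1.37 ± 0.29 (limma adjusted p = 0.0017). Progenitor replicate 3 was again its group's lowest array, at 13.8 beside 89.9 and 89.1, and it lay inside the stem Leydig range of 7.51 to 18.3. Stem Leydig versus bone stem cells did not pass on this probe set (-0.77 ± 0.30, limma adjusted p = 0.0858), unlike on the brightest one. The other 2 did not exceed 33.9 on any array. Both were higher in progenitor than in stem Leydig cells (0.62 ± 0.17 and 0.54 ± 0.12), and neither passed for adult versus immature cells (limma adjusted p = 0.757 and 0.266). With the 4 probe sets averaged, Kitlg changed by 1.21 for progenitor versus stem Leydig, -0.90 for adult versus immature, -1.14 for adult versus progenitor and -0.65 for stem Leydig versus bone stem cells, all called. In the 6 main comparisons, 0 of the 5 dimmer Kitlg and Pdgfrb probe sets were called in the direction opposite to its gene's brightest one.

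**Figure D3:**
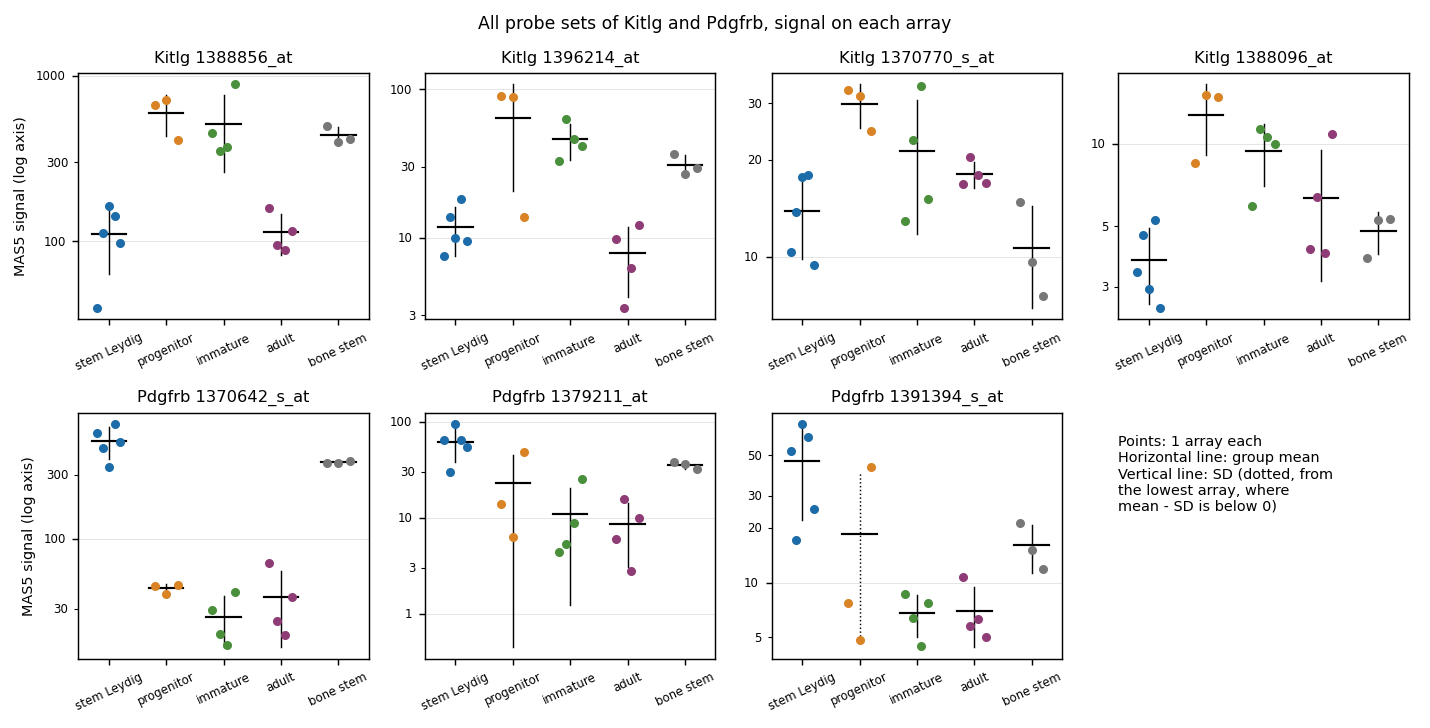
MAS5 signal (vertical log axis, arbitrary units) of the 4 probe sets of Kitlg and the 3 of Pdgfrb on each array, with 1 point per array and lines for the group mean and SD. The 2 brighter Kitlg probe sets are high in progenitor, immature and bone stem cells and low in stem Leydig and adult cells, and the 3 Pdgfrb probe sets are highest in stem Leydig cells.

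Leukocyte, erythroid, endothelial and Sertoli markers were set beside Kitlg. The leukocyte sum over 12 genes was 4455 to 6044 on progenitor, 2500 to 5888 on immature and 1626 to 3924 on adult arrays, against 725 to 1206 on stem Leydig and 14005 to 16120 on bone stem arrays. The erythroid and marrow sums given above were also high in progenitor and immature cells and lower in adult cells, with 4 of 6 markers lower and 0 higher both in adult versus immature and in adult versus progenitor cells. Immature replicate 4 had the highest leukocyte sum, erythroid sum and, on the brightest probe set, Kitlg signal of its group. On each dimmer Kitlg probe set another immature array was highest. Replicate 4 also had the highest Leydig, endothelial, smooth muscle and mesenchymal sums of the immature group, and the lowest germ cell, Sertoli and mast cell sums. In bone stem cells, where Kitlg was high, the erythroid sum overlapped with that of stem Leydig cells. Endothelial markers over 9 genes summed to 1061 to 2012 on progenitor, 311 to 887 on immature and 622 to 3106 on adult arrays, against 331 to 515 on stem Leydig arrays and 293 to 412 on bone stem arrays. Of the 9, 7 were higher and 0 lower in progenitor than in stem Leydig cells, and again 7 higher and 0 lower in adult than in immature cells. Of all named genes 26.8% were higher and 18.5% lower in progenitor versus stem Leydig cells. The shares were 12% and 17.3% in adult versus immature and 14% and 19.6% in adult versus progenitor cells. Sertoli markers over 8 genes summed to 123 to 150 in stem Leydig, 459 to 808 in progenitor, 687 to 974 in immature and 1101 to 2123 in adult cells, and to 119.5 to 145 in bone stem cells. The Sertoli sum followed the tight junction gene Cldn11, whose mean was 365 (progenitor), 655 (immature) and 1443 (adult). Of the 8 Sertoli markers, 4 were higher and 0 lower in progenitor than in stem Leydig cells, and 1 was higher and 1 lower in adult than in immature cells (median log2 change -0.06). The part of these cell types in the Kitlg values was not tested.

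**Figure D4:**
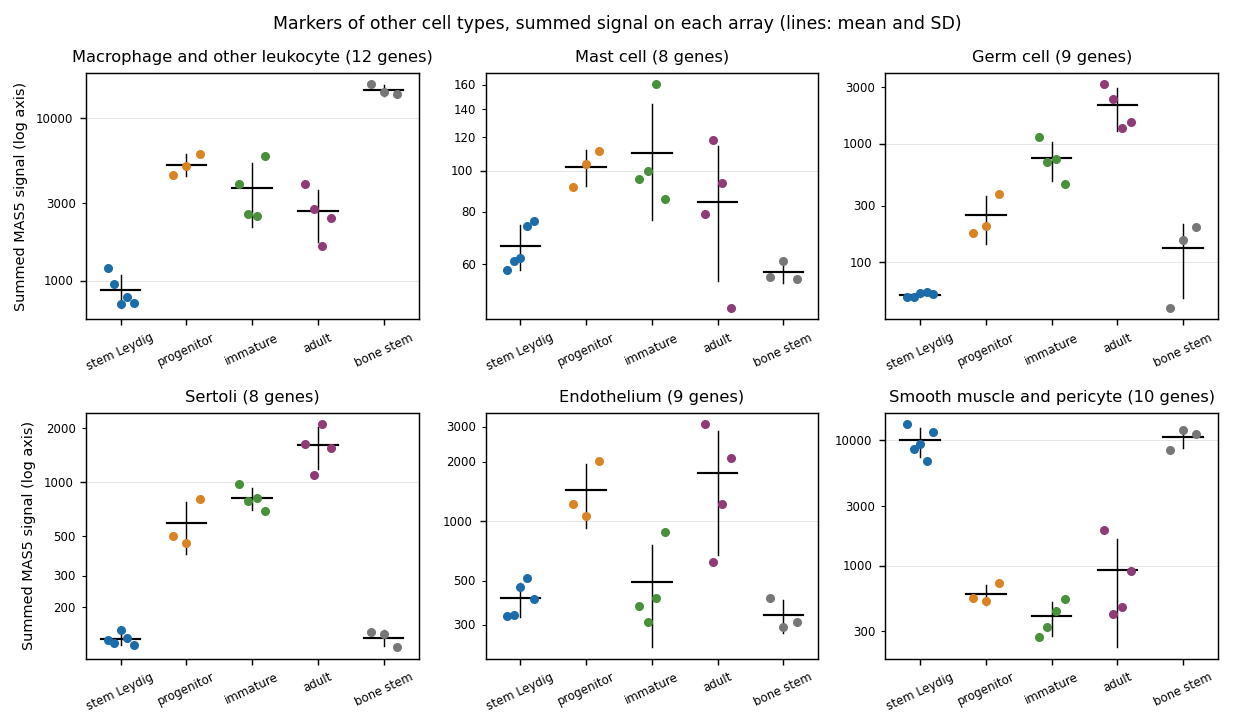
Summed MAS5 signal (vertical log axis, arbitrary units) of 6 marker lists on each array, by group, with 1 point per array and lines for the mean and SD. Bone stem arrays have the highest leukocyte sums, stem Leydig and bone stem arrays the highest smooth muscle sums, and germ cell and Sertoli sums are highest in adult cells.

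Pdgfa, the A chain, is the ligand whose main receptor is the product of Pdgfra. It stood at 47.5, 75.8 and 69.3 on progenitor arrays, against 448, 449, 686, 486 and 522 on stem Leydig arrays. Ligand and receptor thus differed in opposite directions between these groups, with Pdgfa at -2.74 ± 0.20 on the log2 scale (limma adjusted p = 6.55e-10). Immature arrays were at 26.4, 40.8, 44.0 and 55.6, and adult arrays at 65.2, 38.0, 35.0 and 40.2. No pair of these 3 stages was called, although immature versus progenitor cells had an unadjusted p of 0.0296 (log2 change -0.48 ± 0.21, limma adjusted p = 0.345). Bone stem arrays, at 422, 637 and 599.8, overlapped with stem Leydig arrays (-0.09 ± 0.20, limma adjusted p = 0.852).

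Pdgfc and Pdgfd encode ligands that are secreted in a latent form and activated by proteolysis. Both had low signals and both were higher in adult than in immature cells. Pdgfc stood at 22.8, 43.5, 34.6 and 22.1 on adult arrays, against 5.44, 19.9, 3.12 and 2.55 on immature arrays, without overlap (log2 change 1.01 ± 0.25, limma adjusted p = 0.00559). This call was lost with array quality weights (0.62, adjusted p = 0.0593). In progenitors Pdgfc was 1.66, 12.7 and 5.98, below the 61.8, 47.5, 18.5, 46.6 and 37.1 of stem Leydig arrays (-1.33 ± 0.26, limma adjusted p = 0.0003). Adult and stem Leydig cells overlapped (-0.29 ± 0.24, limma adjusted p = 0.353), as did stem Leydig cells with the bone stem arrays at 26.4, 38.5 and 30.1 (0.25 ± 0.26, limma adjusted p = 0.61).

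Pdgfd was highest in adult cells. It stood at 20.7, 36.6, 29.96 and 29.7 on adult arrays, against 7.34, 12.3, 5.22 and 1.59 on immature arrays (1.01 ± 0.16, limma adjusted p = 8.77e-05). The adult arrays also exceeded the stem Leydig arrays, at 16.9, 11.01, 10.4, 16.2 and 17.4 (0.57 ± 0.15, limma adjusted p = 0.00379), a call lost with a constant of 1 before the log (adjusted p = 0.0673). Progenitor arrays, at 2.47, 10.6 and 4.30, overlapped with stem Leydig arrays. The change of -0.49 ± 0.16 was called (limma adjusted p = 0.0229), but not without progenitor replicate 1 (0.129), progenitor replicate 3 (0.0837) or stem Leydig replicate 5 (0.0506). Bone stem arrays were at 7.31, 7.37 and 5.20, all below the stem Leydig arrays, and this difference of 0.42 ± 0.16 did not pass (limma adjusted p = 0.0847), though it did with array quality weights (0.0095) and in a fit of these groups alone (0.037). Every progenitor and immature signal of Pdgfc and Pdgfd lay under 16 except Pdgfc on immature replicate 2, so the changes depend on the constant: for adult versus immature cells Pdgfc gave 2.20 and Pdgfd 2.19 with a constant of 1, and 0.40 each with 64.

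In the later steps fewer members were called. Immature versus progenitor cells gave 0 of 7, beside 1.94% of all named genes (1.33% higher, 0.612% lower), and 0 of 7 had groups that did not overlap, beside 10.6%. Only Pdgfa had an unadjusted p under 0.05, beside 15.4% of all named genes, and each alternative fit also called 0. Adult versus immature cells gave 3 of 7, Pdgfc and Pdgfd higher and Kitlg lower, beside 29.3% of all named genes (12% higher, 17.3% lower), and their groups did not overlap, as for 31.4% of all named genes. Of the 12 probe sets 4 were called, beside 21.1%. Adult versus progenitor cells gave the same 3 genes, beside 33.6% (14% higher, 19.6% lower) and without overlap, beside 41.8%, with changes of 1.04 ± 0.27 for Pdgfc, 1.06 ± 0.17 for Pdgfd and -2.22 ± 0.33 for Kitlg. Over the whole lineage, adult versus stem Leydig cells gave 5 of 7, beside 53.7% (27.7% higher, 26% lower), all 5 without overlap, beside 49.3%, with Pdgfra (1.28 ± 0.18), Kit (2.48 ± 0.29) and Pdgfd higher and Pdgfrb and Pdgfa (-3.15 ± 0.18) lower. Stem Leydig versus bone stem cells gave 2 of 7, Pdgfra higher and Kitlg lower, beside 23.9% of all named genes (9.73% higher, 14.1% lower), and 3 of 7 did not overlap, beside 30.3%. With a 2-fold minimum the count was 1, Kitlg, beside 7.96%. With 7 genes, the counts after the first comparison lie near these background shares. Comparisons that share a group also share its arrays.

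The measured genes around Kit and Pdgfra on chromosome 14 did not all follow them. Kdr, the vascular endothelial growth factor receptor on the other side of Kit, was at 236 ± 80.3 in progenitor against 11.7 ± 7.83 in stem Leydig cells (log2 change 3.18 ± 0.39, limma adjusted p = 1.52e-06). It was lower in immature than in progenitor cells (56.5 ± 44.2 against 236 ± 80.3, -1.92, adjusted p = 0.0206) and higher in adult than in immature cells (206 ± 119 against 56.5 ± 44.2, 1.60, adjusted p = 0.00404). Kdr is in the endothelial list. Of its genes, 2 of 9 were lower in immature than in progenitor cells, beside 0.612% of all named genes. In adult versus immature cells 7 of 9 were higher, beside 12%. The part of endothelial cells was not tested. Gsx2, next to Pdgfra on its far side, was not measured. Chic2, beyond Gsx2, was at 56.9 ± 7.14 in progenitor against 83.1 ± 22.1 in stem Leydig cells, which did not pass (-0.42, adjusted p = 0.0875). It was higher in adult than in stem Leydig cells (146 ± 16.8 against 83.1 ± 22.1, 0.73, adjusted p = 0.00154). Srd5a3, next to Kdr, encodes a polyprenol reductase and was higher in progenitor than in stem Leydig cells (440.3 ± 90.7 against 262 ± 13.5, 0.70, adjusted p = 7.83e-05) and lower in adult than in immature cells (262 ± 35.4 against 396 ± 24.8, -0.58, adjusted p = 0.000967).

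Other genes of the pathway were taken from 6 lists. Their counts stand beside 26.8% of all named genes higher and 18.5% lower in progenitor versus stem Leydig cells, 12% higher and 17.3% lower in adult versus immature cells, and 9.73% higher and 14.1% lower in stem Leydig versus bone stem cells. Among 13 measured relatives of these receptors and their ligands, 3 were higher and 7 lower in progenitor than in stem Leydig cells (median log2 change -1.02). The lymphatic growth factor gene Vegfc fell to 26.8 ± 6.24 in progenitor, against 698 ± 138 in stem Leydig cells, and Pdgfrl, a receptor-like gene, to 18.6 ± 5.50 against 172 ± 75.9. In adult versus immature cells 2 rose, Kdr among them, and 1 fell, the blood progenitor receptor gene Flt3 (9.49 ± 4.90 against 24.7 ± 9.89). In stem Leydig versus bone stem cells 3 were higher, such as Flt1 (72.3 ± 15.9 against 4.30 ± 3.73), and 2 lower, such as the macrophage receptor gene Csf1r (20.0 ± 3.00 against 522 ± 362). Csf1r is also in the leukocyte list, of which 10 of 12 were lower in stem Leydig than in bone stem cells.

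Of 18 genes that process, bind or shed these ligands, 1 rose and 6 fell in progenitor versus stem Leydig cells (median -0.27). A2m, a protease inhibitor in plasma that binds PDGF, fell to 9.96 ± 2.35 in progenitor, against 230.1 ± 134 in stem Leydig cells, and the integrin gene Itgav to 168 ± 31.1 against 651 ± 126. In adult versus immature cells 2 rose and 4 fell, with Itgb3 at -1.61 ± 0.24 and the co-receptor gene Nrp1 at -1.07 ± 0.20. In stem Leydig versus bone stem cells 8 were higher and 1 lower, with A2m at 2.51 ± 0.32 and the gelatinase gene Mmp9 at -1.89 ± 0.31.

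Among 39 adaptors, kinases and phosphatases, 14 rose and 10 fell in progenitor versus stem Leydig cells (median 0.22). The leading genes here are known from lymphocytes and other blood cells: Lck was at 609 ± 105 in progenitor against 36.5 ± 3.14 in stem Leydig cells, and Ptpn6 at 254 ± 20.1 against 15.95 ± 5.002. In adult versus immature cells 2 rose and 11 fell, with Lck at -1.87 ± 0.21 and the leukocyte kinase subunit Pik3cd at -1.77 ± 0.25. In stem Leydig versus bone stem cells 6 were higher and 5 lower, with Yes1 at 1.19 ± 0.16 and Ptpn6 at -2.69 ± 0.20. Lck was at 36.5 ± 3.14 in stem Leydig against 42.8 ± 12.2 in bone stem cells, which did not pass (-0.14 ± 0.22, limma adjusted p = 0.756). Of the 12 leukocyte markers, 8 were higher and 1 lower in progenitor than in stem Leydig cells, and the part of leukocytes was not tested.

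Negative regulators of receptor signalling were lower in progenitors in 10 of 23 cases and higher in 3 (median -0.54). Dusp6, a phosphatase that switches off ERK kinases, fell to 69.0 ± 9.91 in progenitor, against 563 ± 124 in stem Leydig cells, and Socs6 to 143 ± 8.58 against 313 ± 28.7. In adult versus immature cells 4 rose and 5 fell, with Lrig1 at -1.80 ± 0.23 and Spry2 at -1.69 ± 0.30, both feedback inhibitors of growth factor receptors. In stem Leydig versus bone stem cells 7 were higher and 2 lower, with Lrig1 at 1.54 ± 0.24 and the adaptor gene Sh2b2 at -1.19 ± 0.16.

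The 20 early response and growth genes were split in progenitor versus stem Leydig cells, with 7 higher and 7 lower (median 0.04). The cyclin gene Ccnd1 fell to 54.2 ± 16.3 in progenitor, against 1084 ± 298 in stem Leydig cells, and the ETS factor gene Etv4 to 5.88 ± 0.43 against 91.5 ± 28.5. In adult versus immature cells 2 rose, Ccnd1 (1.505 ± 0.20) and Ier3 (1.87 ± 0.27), and 0 fell. In stem Leydig versus bone stem cells 6 were higher and 1 lower, with Etv4 at 1.89 ± 0.21 and Fosb at 2.21 ± 0.41. Of 10 transcription factors known from Kit-positive lineages, 5 rose and 2 fell in progenitor versus stem Leydig cells (median 0.32). The 2 that fell were Runx1 (37.2 ± 19.5 in progenitor against 378 ± 51.4 in stem Leydig cells) and Mitf (18.2 ± 3.90 against 48.2 ± 8.22), which is known to act on the Kit promoter in mouse mast cells. In adult versus immature cells Sp1 fell (-0.58 ± 0.13) and 0 rose, and Runx1 was at -0.50 ± 0.18 (limma adjusted p = 0.0577). In stem Leydig versus bone stem cells 1 was higher and 3 lower, with Lmo2 at -2.09 ± 0.27 and Gata2 at -1.36 ± 0.20. The median over all named genes was 0.08, -0.06 and 0.00 in these 3 comparisons. Runx1 in adult versus immature cells and Lck in stem Leydig versus bone stem cells did not pass. All other changes named from the 6 lists had limma adjusted p values from 8.01e-12 to 0.00637.

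Genes whose course over the 19 arrays was most like a member's were named by Pearson's r of the log2 values among 9718 genes. These correlations are descriptions, since the 19 arrays fall into groups that share their stage. Nearest to Pdgfra were Ubtf (r = 0.976), a factor of ribosomal RNA transcription, Pogz (0.973) and Clic2 (0.971). Clic2 averaged 1306 in progenitor and 1321 in adult cells, against 293 in stem Leydig and 202 in bone stem cells. Nearest to Kit were the vesicle protein gene Vamp2 (0.966), the calcium-binding protein gene Gca (0.962) and Rgs22 (0.960). Gca averaged 247 (progenitor), 349 (immature) and 306 (adult), against 13.3 in stem Leydig and 9.24 in bone stem cells. Pdgfa was nearest to Tnfrsf12a (0.992), a cytokine receptor gene, the lamin gene Lmna (0.988) and Pmepa1 (0.987). Kitlg was nearest to Cst7 (0.937), a protease inhibitor gene of leukocytes, Msl1 (0.934) and Arhgap30 (0.927). Cst7 averaged 152 in progenitor, 114 in immature and 82.7 in bone stem cells, against 22.3 in adult and 11.5 in stem Leydig cells.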

How the data were processed

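The authors' deposited table holds linear intensities, namely MAS5 signals from the GCOS software, per the submitters' processing notes, which name no version. Each array took 6 ug of RNA, per the labels' protocols. Precision is limited by having 3 to 5 arrays in a group. Pdgfb is not analysed here.

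Of 31099 probe sets, 57 controls were left out. In the platform annotation 20826 of the rest had 1 symbol, 436 several and 9780 none. A gene was represented by its brightest probe set. Signals were taken as log2(signal + 16), and a log2 change on this scale understates the change of dim genes. A model with 5 group means was fitted in limma 3.58.1 (R 4.3.3) with an intensity trend, 2-sided, with Benjamini-Hochberg adjustment over 31042 probe sets. Python 3.11.15 with pandas 2.3.3 and matplotlib 3.10.9 made the tables and plots. The model was tested on simulated data. Alternatives were a 2-fold minimum, quantile and median scaling, constants of 1 and 64, a filter on the lowest 40% of probe sets, no trend, array quality weights, only the groups compared, a replicate block, the mean of a gene's probe sets, and arrays left out or averaged.

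Members and lists were chosen with earlier results of these data known. Named genes were all members, the 2 genes with the smallest adjusted p per pathway list in 3 comparisons, and the 3 genes with the highest r to Pdgfra, Pdgfa, Kit and Kitlg. Lck in stem Leydig versus bone stem cells was named outside this rule. The arrays called close pairs or standing apart were also known from earlier results. Promoter windows came from RefSeq (GRCr8), and 7 of 8 members had one.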

Additional observations from a re-analysis of the deposited data

Results flagged for a closer look

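Of 36 sets of 4 or 5 arrays examined for the 12 probe sets, 2 had an array far from the others, about what chance gives at a rate near 1 in 20. Adult replicate 3 had the highest Pdgfra signal of its group, 2150, while the other adult arrays lay between 1749 and 1793. Immature replicate 2 had Pdgfc at 19.9, against 2.55 to 5.44 on the other immature arrays.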

How the results depend on the processing

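The 20 called changes of single members kept their direction in all 418 refits that gave a value, and 9 of those refits lost the call. Of these 9, the losses are Pdgfd in progenitor versus stem Leydig cells (adjusted p = 0.0506 to 0.129) and in adult versus stem Leydig cells, Pdgfc with array quality weights, and changes under the 2-fold minimum. The number of members called stayed within 1.5 times its value except in stem Leydig versus bone stem cells, where it was 1 with a 2-fold minimum and 4 with array quality weights, against 2. Without the lowest 40% of probe sets Pdgfd was not tested. The replicate block changed no call and left 7 members called in progenitor versus stem Leydig cells, 0 in immature versus progenitor, 3 in adult versus immature, 5 in adult versus stem Leydig, 3 in adult versus progenitor and 2 in stem Leydig versus bone stem cells. Deviations from the group means correlated at -0.269 to 0.264 over 33 pairs of arrays with the same replicate number. Over 110 pairs with other numbers they correlated at -0.264 to 0.263. With so few arrays in a group, this check cannot exclude that the numbers pair the samples.

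Some changes that were not called turned sign near 0, and the cause was not tested. With the replicate block, Pdgfra was at -0.001 for immature versus progenitor and Kit at 0.0434 for stem Leydig versus bone stem cells. With median centring, Pdgfra was at 0.0451 for adult versus immature and 0.114 for adult versus progenitor cells. Without the 2 arrays standing apart (progenitor replicate 3 and immature replicate 4), Pdgfra was at -0.0612 for immature versus progenitor and 0.0132 for adult versus immature, and Kit at -0.348 for adult versus progenitor cells, where array quality weights gave -0.27. With close pairs averaged, Pdgfc was at -0.032 for immature versus progenitor and Pdgfa at 0.0022 for stem Leydig versus bone stem cells. Leaving out 1 array at a time gave these ranges. For immature versus progenitor cells they were -0.076 to 0.199 for Pdgfra, -0.183 to 0.214 for Pdgfc and -0.0642 to 0.203 for Pdgfd. For adult versus immature cells they were -0.262 to 0.0132 for Pdgfra and -0.0788 to 0.182 for Pdgfa. For adult versus progenitor cells they were -0.167 to 0.026 for Pdgfra and -0.348 to 0.447 for Kit. They were -0.156 to 0.265 for Kitlg in adult versus stem Leydig and -0.264 to 0.0232 for Pdgfa in stem Leydig versus bone stem cells.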
